A study of Homo sapiens with 5 samples.

Results

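The mitochondrial ribosomal protein genes were followed across oxygen levels in MDA-MB-231, an established human breast cancer cell line with mesenchymal features. Members were the rows without a hyphen whose symbol is MRPL or MRPS followed by digits, with at most 1 further letter. MRPS6 was left out, and a member had to reach 5 CPM (counts per 1000000 counts of the library, scaled by the trimmed mean of M values, TMM) in at least 1 library. All 76 rows that matched the symbol rule reached this level, so 76 genes of the 26475 rows in the table were members. Of the rows, 13940 had at least 1 CPM in at least 1 library and are called the tested genes below. By their place in the ribosome, 50 members belong to the large subunit and 25 to the small subunit, and MRPS36 belongs to neither. MRPL55 was the member nearest to the threshold, with 3.93 to 7.58 CPM over the libraries.

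There were 5 libraries, 1 for each condition, all from the same parental line with no genetic change named in the labels. Cells had been kept at 20% O2 for 1 day, at 1% O2 for 1 day, at 20% O2 for 10 days or at 1% O2 for 10 days. The reoxygenated cells had 10 days at 1% O2 and then 10 days at 20% O2, so they were in culture longer than the cells of any other library. The acute difference is 1% minus 20% O2 at day 1, and the chronic difference is 1% minus 20% O2 at day 10. Every difference below sets 1 library against 1 other, so it has no replicate check, and its 95% interval covers counting error only.

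Mitochondrial ribosomes translate the few messages of the mitochondrial genome, which encode core subunits of the respiratory chain and of the ATP synthase. Their ribosomal RNAs come from mitochondrial DNA, whereas all of their proteins are encoded in the nucleus, made on cytosolic ribosomes and imported. The large subunit forms peptide bonds and holds the exit tunnel at the inner membrane, and the small subunit binds and decodes the message. Many of the proteins have homologues in bacterial ribosomes, and others are found in mitochondria only.

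Library totals ran from 7719797 to 12544953 expected counts. CA9, a carbonic anhydrase induced by hypoxia, had 53 and 104 counts in the 20% O2 libraries, 560 and 717 in the 1% O2 libraries and 29 after reoxygenation. VIM, the mesenchymal filament vimentin, was at 977 to 2198 CPM, and ESR1, the estrogen receptor gene of luminal breast cells, had 0 to 2 counts. Other luminal markers were present. The 7 luminal markers listed summed to 422 to 554 CPM over the libraries, most of it KRT18 with 342 to 478 CPM, and ERBB2 was at 42.5 to 52.9 CPM. The 12 markers of other cell types summed to 12.6, 13.0, 15.7 and 19.0 CPM in the libraries other than 1% O2 day 10 and to 39.9 CPM there, with 4 to 7 of the 12 at 0 in a library. The higher sum at 1% O2 day 10 lay mostly in PDGFRB, with 17.4 CPM, and COL1A1, with 14.5 CPM. These are genes of mesenchymal cells such as fibroblasts. Their part in the chronic differences was not tested.

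Promoter windows from RefSeq (GRCh38.p14, 250 bases before to 50 after an annotated start) matched 67 of the 76 members and gave 83 windows. Upstream stretches of 120 bases, ending just before the start, are shown for 3 of the 4 members with the lowest chronic difference and for MRPL34, the member with the highest. Capitals mark CCGGAAG (the core bound by ETS factors such as GABP), GCGC, any 2 bases and GCGC again (a pair of half-sites bound by NRF1) and ACGTG (the core of hypoxia response elements), on either strand. ACGTG lies inside CACGTG, the E-box bound by MYC. MRPL34 had 4 annotated starts, and the 2 stretches with a match are given.
MRPL20, chr1:1407294-1407413, minus strand: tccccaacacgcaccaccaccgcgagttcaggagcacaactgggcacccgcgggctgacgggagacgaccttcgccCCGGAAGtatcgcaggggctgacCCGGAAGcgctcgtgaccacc
MRPL37, chr1:54200047-54200166, plus strand: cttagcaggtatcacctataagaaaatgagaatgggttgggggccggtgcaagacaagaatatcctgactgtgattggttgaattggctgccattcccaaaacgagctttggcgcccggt
MRPL3, chr3:131502972-131503091, minus strand: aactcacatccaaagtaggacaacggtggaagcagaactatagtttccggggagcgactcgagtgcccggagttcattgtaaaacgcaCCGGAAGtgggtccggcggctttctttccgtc
MRPL34, chr19:17305533-17305652, plus strand: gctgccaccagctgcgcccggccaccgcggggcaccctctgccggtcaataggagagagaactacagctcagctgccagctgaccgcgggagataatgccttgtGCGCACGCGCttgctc
MRPL34, chr19:17305752-17305871, plus strand: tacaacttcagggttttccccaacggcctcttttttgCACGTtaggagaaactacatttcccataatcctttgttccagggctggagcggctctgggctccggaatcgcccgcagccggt

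MRPL20 thus held the ETS core at 2 places and MRPL3 at 1, while the stretch of MRPL37 held none of the searched letters. Outside the stretch shown, the MRPL37 window held CACGTG, and so ACGTG, at position -170 from the start. Over all member windows, CCGGAAG was found in 38.6%, against 10.3% of all 35116 windows and 16.1% of the 15168 windows of tested genes. Counted by gene, 43.3% of the matched members held it, against 12.2% of all genes with windows and 21.7% of tested genes. Of its 43 matches, 30 began within 50 bases of the start. Windows of MRPS22, MRPL47 and MRPS12 overlap, so some sites are counted in more than 1 window. The members with the ETS core had a median chronic difference of -0.57 (29 genes), and those without it had -0.72 (38 genes). The ranges of both groups overlapped, and MRPL20, the lowest member of all, held the core.

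The motif AAGATGGCG, bound by the factor YY1, was the rarest of the searched motifs in all windows. It was in 15.7% of the member windows, 1.75% of all windows and 3.23% of the windows of tested genes, and 11 of its 14 matches began within 50 bases of the start. Stretches of 30 bases are shown, motif in capitals, for 5 of the 13 members that held it. They run from members much lower to a member at nearly the same level at 1% O2 day 10, with chronic differences of -1.26, -1.25, -0.63, -0.27 and -0.06 from first to last.
MRPL46, chr15:88467361-88467390, minus strand: gggagaacgaAAGATGGCGgcgcccgtaag
MRPL38, chr17:75904859-75904888, minus strand: ggccggagggAAGATGGCGgcgccctggtg
MRPS10, chr6:42217833-42217862, minus strand: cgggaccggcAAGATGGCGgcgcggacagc
MRPS18B, chr6:30617853-30617882, plus strand: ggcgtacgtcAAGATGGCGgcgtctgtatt
MRPL42, chr12:93467512-93467541, plus strand: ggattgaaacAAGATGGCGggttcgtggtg

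With and without the YY1 letters, the median chronic differences were -0.63 (13 genes) and -0.71 (54 genes). The NRF1 half-site pair was in 13.3% of member windows and in 13.2% of those of tested genes, CACGTG in 10.8% and 8.98%, and ACGTG in 30.1% and 25.1%. The shares of these last 3 motifs were thus close to, or less than 1.5 times, the shares in windows of all tested genes, members included. By gene, the NRF1 pair was in 14.9% of matched members and 17.9% of tested genes. CACGTG was in 13.4% and 12.2%, and ACGTG in 35.8% and 32.2%.

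As a group, the mitochondrial ribosomal protein messages were lowest in cells kept for 10 days at 1% O2. The 76 members together took 0.506% of the counts at 20% O2 day 1, 0.440% at 1% O2 day 1, 0.465% at 20% O2 day 10, 0.318% at 1% O2 day 10 and 0.427% after reoxygenation. The exact binomial 95% interval at 1% O2 day 10, 0.314% to 0.321%, lay apart from the nearest other one, 0.422% to 0.432% in reoxygenated cells. For single members, 67 of 76 were lowest at 1% O2 day 10 and 57 were highest at 20% O2 day 1. The same shares over all tested genes were not computed, so these counts only describe the members. In RNA from whole cultures, fewer cells with a message and less of it per cell cannot be told apart.

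The median member stood at 57.3 CPM at 20% O2 day 1, 50.1 at 1% O2 day 1, 48.8 at 20% O2 day 10, 30.2 at 1% O2 day 10 and 43.9 after reoxygenation. MRPS10, a protein of the small subunit head, had the most CPM of the members in each library, from 179 at 1% O2 day 10 to 278 at 20% O2 day 10.

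In the chronic difference 73 of 76 members were below 0, with a median of -0.65 on the log2 scale and a range of -1.46 to 0.39. Among all tested genes 49.1% were below 0, and the median was 0.02. By at least 1.5-fold, 41 members were lower and none higher, against 19.7% of tested genes lower and 24.4% higher. By at least 2-fold, 18 members were lower, against 7.04% of tested genes. The interval lay below 0 for 68 members and above 0 for 1, where 35.8% of tested genes had an interval below and 33.9% above 0. Most members are well expressed, and among the 8622 tested genes with 20 or more CPM in a library the median was -0.16, with 59.9% below 0, 24.5% lower by 1.5-fold and 8.32% by 2-fold. Counting intervals are narrower at higher counts, and of these 8622 genes 4321 had an interval below 0 and 2645 above 0. TMM scaling carries part of these values: scaled by library totals alone, the median of all tested genes moved from 0.02 to 0.14 and that of the members to -0.53. The members were 0.67 below the tested genes with both scalings.

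**Figure D1:**
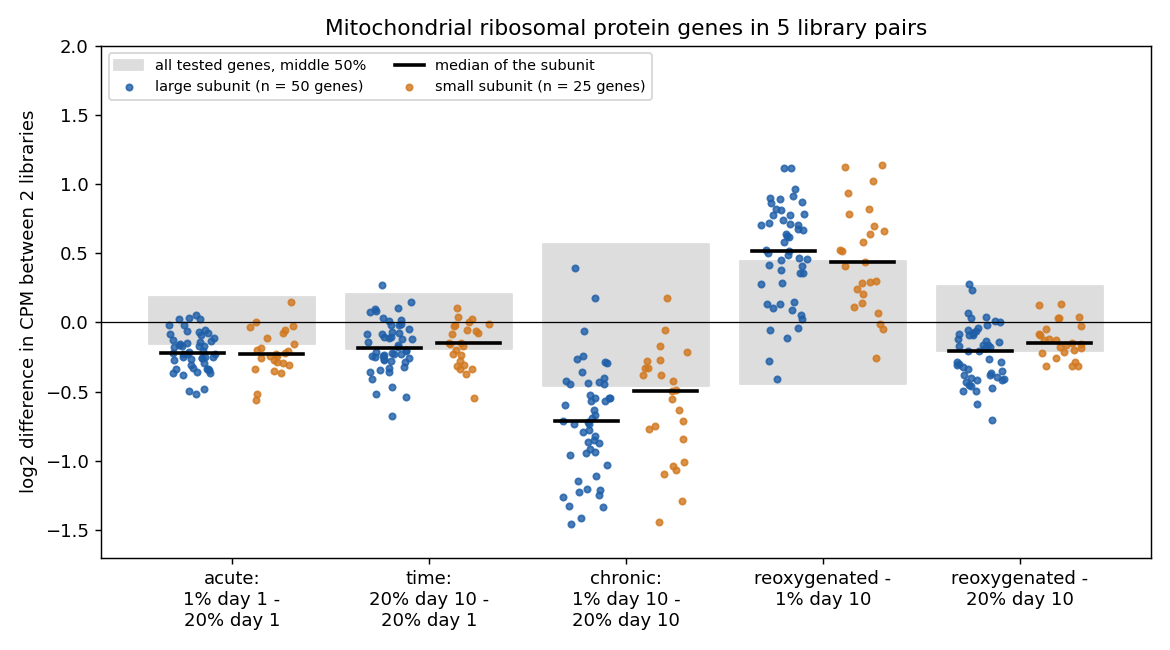
Each point is 1 member's log2 difference in CPM between 2 libraries, in 5 library pairs (x axis), for the 50 large subunit genes (blue) and the 25 small subunit genes (orange); black lines are medians and grey bands hold the middle 50% of the 13940 tested genes. In the chronic pair both medians, -0.72 and -0.50, lie below the grey band, and in reoxygenated minus 1% O2 day 10 the large subunit median of 0.52 lies above it.

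By median, the large subunit stood lower than the small one in the chronic difference. Its 50 genes had a median of -0.72 and the 25 small subunit genes -0.50, a gap of -0.22. By at least 1.5-fold, 30 of 50 large and 11 of 25 small subunit genes were lower, against 19.7% of tested genes. By at least 2-fold, 12 and 6 were lower, an equal share of both subunits, against 7.04% of tested genes. From 20% to 1% O2 at day 10, the summed level went from 2980 to 1809 CPM in the large subunit. In the small subunit it went from 1752 to 1144 CPM. The ranges overlapped almost fully, from -1.46 to 0.39 in the large and from -1.44 to 0.18 in the small subunit. Grouped by symbol, with MRPS30, MRPS18A and MRPS36 counted with the other MRPS genes, the gap was -0.20. In the acute difference the gap was 0.01, and it was -0.04 over time at 20% O2. With 1 library a condition, the gap between subunits has no test.

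Split by ancestry, the medians of the proteins with bacterial homologues were -0.76 for the 30 large subunit genes and -0.50 for the 15 small subunit genes. By at least 2-fold, 8 of these 30 and 5 of these 15 were lower, beside 18 of all 76 members and 7.04% of tested genes. Among the mitochondrion-specific proteins, the 20 large subunit genes had -0.65 and the 10 small subunit genes -0.57. No difference between these classes was tested.

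**Figure D2:**
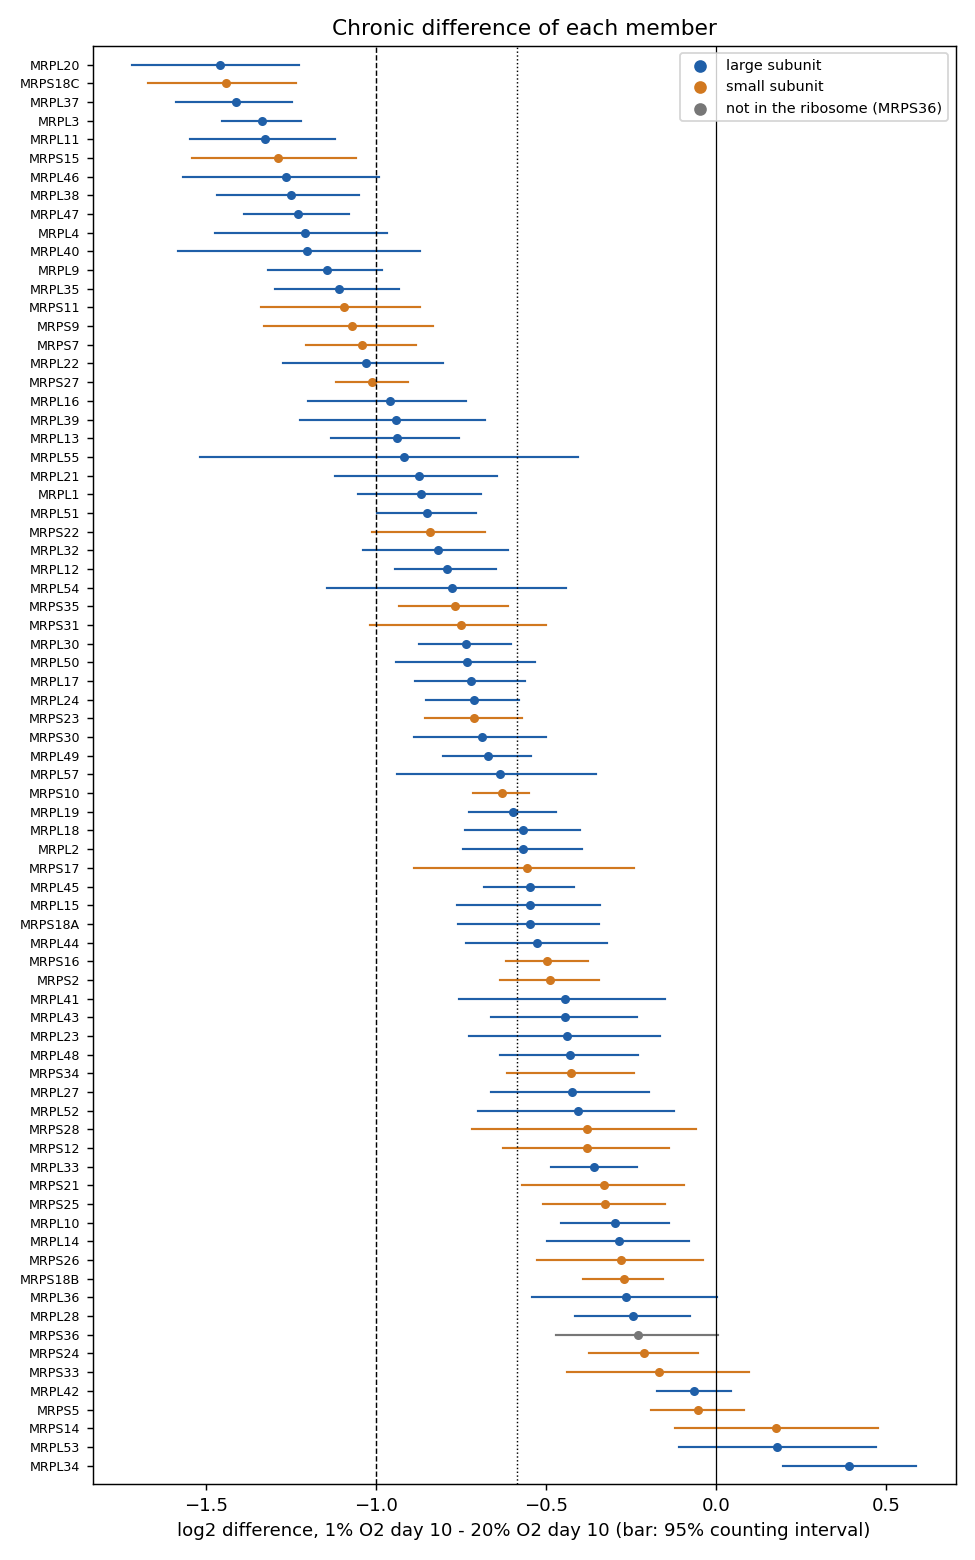
The chronic log2 difference (x axis) of each of the 76 members, lowest at the top, with its 95% counting interval; blue is the large subunit, orange the small subunit and grey MRPS36, and the dotted and dashed lines mark 1.5-fold and 2-fold lower. Bars lie fully below 0 for 68 members, and MRPL34 at the bottom has the single bar above 0.

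At the central protuberance, where the large subunit meets the head of the small one, 3 of 5 genes were lower by at least 2-fold in the chronic difference. That compares with 18 of all 76 members and 7.04% of tested genes, and 5 genes are too few to set this site apart. MRPL46 was at 37.9, 29.1, 31.6, 13.0 and 23.9 CPM in the order 20% day 1, 1% day 1, 20% day 10, 1% day 10 and reoxygenated, which gave -1.26 (95% interval -1.57 to -0.99). MRPL38 was at 64.7, 54.3, 59.5, 24.9 and 54.3 CPM in the same order, with -1.25 (-1.47 to -1.05). For both genes the 1% O2 day 10 library was the lowest by far. MRPL40 had -1.20 (-1.58 to -0.87), MRPL18 -0.57 and MRPL48 -0.43.

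The factor-binding stalk recruits the translation factors to the ribosome. MRPL11, at its base, was at 70.1, 55.5, 58.9, 23.4 and 43.6 CPM, with a chronic difference of -1.33 (-1.55 to -1.12). MRPL12, which forms the flexible arm, was at 106, 74.3, 92.0, 53.1 and 69.3 CPM, with -0.79 (-0.94 to -0.65). MRPL10, which carries MRPL12, was at 61.0, 54.8, 64.3, 52.3 and 50.9 CPM, with -0.30 (-0.46 to -0.14). The counting intervals of these 3 stalk genes did not overlap, and the spread between cultures is not known. MRPL1, of the L1 stalk on the opposite side, had -0.87 (-1.05 to -0.69).

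All 8 genes at the rim of the peptide exit tunnel had an interval below 0 in the chronic difference, with a median of -0.72. Such an interval was held by 68 of all 76 members, so it does not mark this site. It was held by 35.8% of tested genes and by 4321 of the 8622 with 20 or more CPM in a library. MRPL47 was the lowest with -1.23 (-1.39 to -1.08), followed by MRPL22 with -1.03. MRPL45, which helps to hold the ribosome at the inner membrane, had -0.55 (-0.68 to -0.42), and MRPL23 had -0.44. Near the peptidyl transferase centre, MRPL3 had -1.33, MRPL16 -0.96, MRPL2 -0.57 and MRPL27 -0.42.

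In the small subunit the 8 head proteins had a median of -0.69, from MRPS9 at -1.07 and MRPS7 at -1.04 to MRPS14 at 0.18. MRPS12, the protein of the decoding centre, had -0.38 (-0.63 to -0.14). MRPS5, at the entry of the message, had -0.05 (-0.19 to 0.08). MRPS27, a mitochondrion-specific protein, was the sixth small subunit gene lower by at least 2-fold, with 198 CPM at 20% O2 day 10 and 98.4 at 1% O2 day 10.

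The 8 members with the lowest chronic difference were MRPL20, MRPS18C, MRPL37, MRPL3, MRPL11, MRPS15, MRPL46 and MRPL38, of which 6 are large subunit genes. MRPL20 was at 56.1 CPM at 20% O2 day 1, 39.8 at 1% O2 day 1, 48.0 at 20% O2 day 10, 17.3 at 1% O2 day 10 and 31.8 after reoxygenation. Its chronic level was 2.75-fold lower (-1.46, interval -1.72 to -1.23). The reoxygenated level was nearly midway between both day 10 levels.

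MRPL37, a mitochondrion-specific large subunit protein, was at 102, 82.6, 94.8, 35.6 and 67.3 CPM in the same order, with -1.41 (-1.59 to -1.25). MRPL3, one of the better expressed members, was at 222, 186, 196, 77.6 and 152 CPM, with -1.33 (-1.45 to -1.22). The small subunit gene MRPS15 was at 57.7, 46.6, 45.7, 18.6 and 41.2 CPM, with -1.29 (-1.54 to -1.06). In these 3 genes both 20% O2 libraries and the 1% O2 day 1 library lay well above 1% O2 day 10, and the acute difference was between -0.31 and -0.25.

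**Figure D3:**
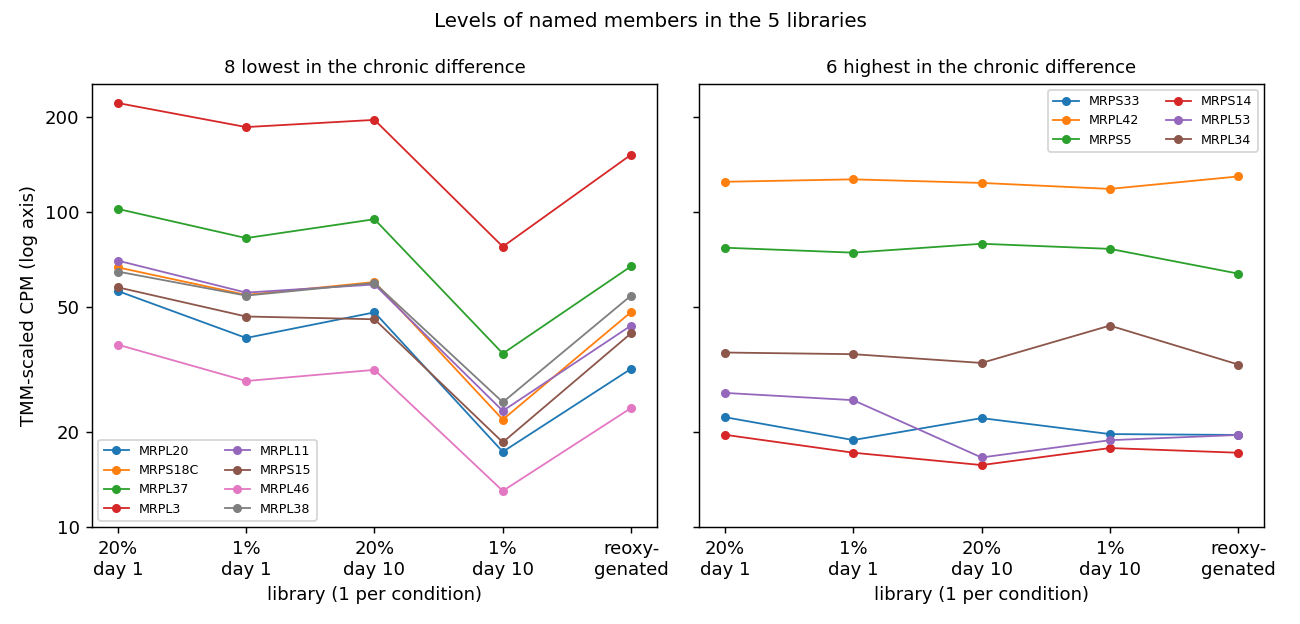
TMM-scaled CPM on a log axis in the 5 libraries (x axis, 1 per condition) of the 8 members with the lowest (left) and the 6 with the highest (right) chronic difference; a line joins the values of 1 gene and implies no course in time. On the left every gene is lowest at 1% O2 day 10, as MRPL20 at 17.3 CPM, and on the right only MRPL34 is highest there, at 43.6 CPM.

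The 6 members with the highest chronic difference were MRPL34, MRPL53, MRPS14, MRPS5, MRPL42 and MRPS33. MRPL34, a small bacterial-type protein of the large subunit, was at 35.8, 35.4, 33.2, 43.6 and 32.8 CPM, with a chronic difference of 0.39 (0.20 to 0.59). It was the single member with an interval above 0. MRPL53 had 0.18 (-0.11 to 0.47) and MRPS14 0.18 (-0.12 to 0.48), and both intervals hold 0. MRPL42 was at 125, 127, 124, 118 and 130 CPM, with -0.06 (-0.17 to 0.05), and its 5 levels were the most even of these. MRPS5 was at 77.0, 74.3, 79.3, 76.4 and 63.7 CPM, and MRPS33 had -0.17 (-0.44 to 0.10). Scaled by library totals, MRPL42 and MRPS5 moved above 0. MRPL53 shares 50.2% of its 50-base words with transcripts of CCDC142, so its count may hold reads of that gene.

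The 3 paralogues of bacterial S18 had unequal chronic differences in these libraries. MRPS18C was at 66.7, 54.6, 59.9, 21.9 and 48.2 CPM, with -1.44 (-1.67 to -1.23). MRPS18A, which sits in the large subunit, was at 53.2, 42, 42.5, 29 and 43.5 CPM, with -0.55 (-0.76 to -0.34). MRPS18B was at 114, 106, 116, 96.4 and 104 CPM, with -0.27 (-0.39 to -0.15). The counting interval of MRPS18C lay apart from those of both others. FAM175A on the opposite strand overlaps 78.9% of the exon bases of MRPS18C, and the strand setting of the counting is not given in the sources used here, so reads of these genes may be mixed. FAM175A had a chronic difference of -0.47.

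MRPS30, which despite its name is a large subunit protein, had a chronic difference of -0.69 (-0.89 to -0.50). MRPS36, now placed in the 2-oxoglutarate dehydrogenase complex and not in the ribosome, was at 32.7, 27.6, 28.5, 24.2 and 26.9 CPM, with -0.23 (-0.47 to 0.01). Subunits that carry another symbol were lower in the chronic difference as well. AURKAIP1 had -0.88, DAP3, a small subunit head protein that binds GTP, -0.69, PTCD3 -0.43 and CHCHD1 -0.35 among small subunit proteins. The large subunit protein ICT1, a peptidyl-tRNA hydrolase, had -0.47.

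One day at 1% O2 went with a smaller difference. In the acute difference 70 of 76 members were below 0, against 49.6% of tested genes, and the median was -0.23 against 0.00. No member was lower or higher by at least 1.5-fold, where 3.22% of tested genes were lower and 6.26% higher by that much. Of the 8622 tested genes with 20 or more CPM in a library, only 26 were lower and 181 higher. The lack of such members is thus no trait of the group. The interval lay below 0 for 47 members and above 0 for none, against 15.5% of tested genes below and 15.9% above 0. Of the 8622 genes with 20 or more CPM, 1902 had an interval below and 1845 above 0. The lowest were MRPS28 with -0.56, MRPS26 and MRPL12 with -0.52 each and MRPL20 with -0.49. At the other end stood MRPS25 with 0.15, MRPL36 with 0.05, MRPL14 with 0.04 and MRPL42 with 0.03. MRPS26 was at 34.4, 23.9, 27.7, 22.8 and 23.9 CPM, so its level at 1% O2 day 1 was already close to that at 1% O2 day 10.

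For most members the chronic difference was lower than the acute one. Chronic minus acute had a median of -0.41, against -0.02 over tested genes, and was below 0 in 67 members, against 51.3% of tested genes. In 29 members it was lower by at least 1.5-fold, against 18.7%. The median was -0.52 in the large and -0.33 in the small subunit. Both differences were below 0 in 67 of the 76 members, and the share of tested genes with both below 0 was not computed. With 1 library a condition, no test of this contrast can be made.

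Time in culture at 20% O2 went with lower levels too. From day 1 to day 10 at 20% O2, 63 members were below 0, against 49.8% of tested genes, with a median of -0.16 against 0.00. MRPL53 was the only member lower by at least 1.5-fold, with 26.7 CPM at day 1 and 16.6 at day 10 (-0.67), where 5.24% of tested genes were lower by that much. Of the 8622 tested genes with 20 or more CPM in a library, 129 were. MRPS17 had -0.55, MRPL57 -0.54 and MRPL41 -0.51, and the highest were MRPL48 with 0.27, MRPL55 with 0.15 and MRPS10 and MRPL23 with 0.10 each. With scaling by library totals, 58 members were below 0. The pair shares the 20% O2 day 1 library with the acute and the 20% O2 day 10 library with the chronic difference.

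After 10 days back at 20% O2 most members were above their level at 1% O2 day 10. The median of reoxygenated minus 1% O2 day 10 was 0.51, against 0.03 over tested genes, with 8 members below 0, against 48.3%. By at least 1.5-fold, 33 members were higher, 23 of the large and 10 of the small subunit, against 17.9% of tested genes, and 5 were higher by at least 2-fold, against 5.6%. When differences were taken relative to the median of tested genes with 20 or more CPM, a setting chosen after seeing the data, 20 members were higher by 1.5-fold. The highest were MRPS15 with 1.14, MRPS18C with 1.13 and MRPL35 and MRPL38 with 1.12 each. MRPL35 was at 71.7 CPM at 20% O2 day 10, 33.2 at 1% O2 day 10 and 72.3 after reoxygenation. The lowest were MRPL34 with -0.41 (-0.64 to -0.19), MRPL48 with -0.28, MRPS5 with -0.26 and MRPL36 with -0.11.

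Most members stayed below the 20% O2 day 10 library. Reoxygenated minus 20% O2 day 10 had a median of -0.17, against 0.00 over tested genes, and 64 members were below 0, against 49.6%. With scaling by library totals, the median was -0.10 and 57 members were below 0. For 57 members the reoxygenated level lay between the levels at 1% and 20% O2 day 10, and the same share over tested genes was not computed. MRPL48 and MRPL20 were lower by at least 1.5-fold, with -0.71 and -0.59, where 4.2% of tested genes were. Of the 8622 tested genes with 20 or more CPM in a library, 131 were. MRPL48 was at 42.7 CPM at 20% O2 day 10, 31.6 at 1% O2 day 10 and 26.0 after reoxygenation. Unlike most members, it was lowest in reoxygenated cells. MRPL54 and MRPL37 followed with -0.49 each, and MRPL41 with 0.28, MRPL53 with 0.23 and MRPS14 and MRPS28 with 0.13 each were the highest. The 18 members that were lower by 2-fold in the chronic difference had a median of -0.34 and the other 58 members -0.15. The chronic and both reoxygenation differences share libraries, so these values are set side by side as a description.

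Oxygen was tested in 1 model over the 4 libraries other than the reoxygenated one, with the day as a term, which leaves 1 residual degree of freedom. That residual is the change of the oxygen difference between the days, not a spread between replicate cultures. Where the chronic and acute differences were unlike, as in most members, this counts as error in the SE and p. In edgeR's quasi-likelihood test over 13011 genes with Benjamini-Hochberg adjustment, none of the 76 members passed an adjusted p of 0.05, where 0.0999% of tested genes fell and 0.899% rose. At an unadjusted p under 0.05 there were 19 members, all lower at 1% O2, against 12.2% of genes in both directions. DESeq2 and limma-voom with the same terms called none either, with 12 and 19 at an unadjusted p under 0.05. The median oxygen term was -0.43, and 73 members were below 0. MRPL20 had the lowest p, with a log2 term of -0.96 (SE 0.29) and an adjusted p of 0.130 in edgeR. MRPL37 had -0.84 (adjusted p 0.195), MRPS18C -0.85 (0.205), MRPL11 -0.81 (0.215) and MRPS15 -0.78 (0.253). Without the 1% O2 day 1 library and the day term, 45 members fell at an adjusted p under 0.05, against 17% of the 12886 genes in that fit, with the lone 1% O2 library assumed to vary like the others. Leaving out any of the other 3 libraries in that way gave none.

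Other genes of mitochondrial gene expression were also lower at 1% O2 day 10. Of 16 mitochondrial translation factors, 11 were lower by at least 1.5-fold in the chronic difference and none higher, with a median of -0.74. Over all tested genes 19.7% were lower and 24.4% higher by that much, and 24.5% were lower among those with 20 or more CPM. MTIF2, the initiation factor, was the lowest with -1.36, and GFM1, an elongation factor, had -1.20. OXA1L, the inner membrane insertase, had -0.02 and MTRF1, of the release factor family, 0.18. Of 29 genes for mitoribosome assembly and rRNA modification, 14 were lower by 1.5-fold and 1 higher, with a median of -0.58, beside the same 19.7% and 24.4% of tested genes. The lowest were GTPBP10, a GTPase of large subunit assembly, with -1.32 and FASTKD2 with -1.16, and the highest were SPG7, a subunit of the protease that matures MRPL32, with 0.65 and TFB1M, an rRNA methyltransferase, with 0.34. Of 12 genes of mitochondrial transcription and DNA maintenance, 6 were lower by 1.5-fold, against 19.7% of tested genes, with a median of -0.61. DNA2 had -1.59 and SSBP1, which binds single-stranded mitochondrial DNA, -1.33, whereas the polymerase genes POLG2 and POLG had 0.14 and 0.17.

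Nuclear-encoded respiratory chain subunits and cytosolic ribosomal proteins stood closer to 0. The 76 respiratory chain genes had a chronic median of -0.37, with 15 lower by 1.5-fold, a share equal to the 19.7% of tested genes. None was higher by 1.5-fold, against 24.4% of tested genes, and 66 were below 0, against 49.1%. Their ends were ATP5G1 with -1.15 and NDUFS6 with -1.08, and COX5B with 0.35 and NDUFA3 with 0.25. The 78 tested cytosolic ribosomal protein genes had -0.12, with 2 lower by 1.5-fold, against 19.7% of tested genes, RPL24 at -0.66 and RPL22 at -0.61. RPL13A had 0.65 and RPL39 0.50. In the acute difference the medians of these lists were close together, with -0.16 for the respiratory chain, -0.15 for the cytosolic ribosome and -0.12 for the translation factors, beside -0.23 for the members. The mitochondrial and the cytosolic ribosome thus had similar acute medians and unlike chronic ones. After reoxygenation, relative to 1% O2 day 10, the medians were 0.26 for the respiratory chain and -0.13 for the cytosolic ribosome.

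**Figure D4:**
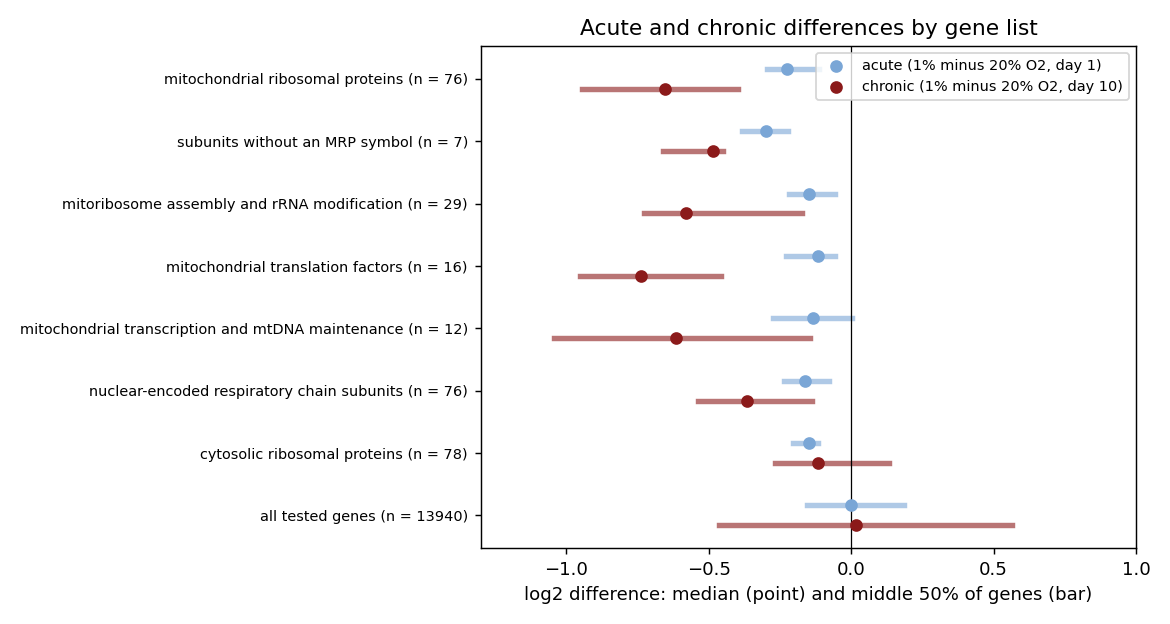
Median (point) and middle 50% (bar) of the log2 difference of the genes of each list, acute in light blue and chronic in dark red, with all 13940 tested genes at the bottom; the 7 subunits without an MRP symbol include MRPL57, a member with an older symbol of another form. The chronic medians of the members, the translation factors and the assembly genes lie between -0.74 and -0.58, that of cytosolic ribosomal proteins at -0.12.

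Among 9 regulators of mitochondrial biogenesis, 3 were lower and 1 higher by at least 1.5-fold in the chronic difference, where 19.7% of tested genes were lower and 24.4% higher. For so few genes these shares cannot be told apart. GABPB1, which encodes a subunit of the ETS factor GABP, was at 54.1, 49.6, 46.6, 14.3 and 36.7 CPM in the order used above, with -1.69. NRF1 was at 20.3, 19.4, 17.4, 9.97 and 14 CPM, with -0.79. Both were lowest at 1% O2 day 10. PPARGC1A, a coactivator of these factors, had 49, 55, 52, 175 and 77 counts, with 1.94, and ESRRA had 0.14.

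Several members start head to head with another gene. In GENCODE release 29, 27 members had a protein-coding neighbour on the opposite strand whose start lay within 1000 bases. MRPL46 and MRPS11 on chromosome 15 are neighbours of each other, with -1.26 and -1.09 in the chronic difference. The 23 tested neighbours that are not members had a chronic median of -0.54, from -2.60 to 1.25, with 11 lower and 3 higher by 1.5-fold, against 19.7% and 24.4% of tested genes. The members beside them had a median of -0.67. PSMA2, beside MRPL32, had -1.15, and KLC4, beside MRPL2, had 1.11. The pairs were thus not uniform, and a low member could have a higher neighbour.

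Reads may be shared for 4 members whose exons overlap another row of the table over at least 20% of their bases or share that much of their sequence with it: MRPL53, MRPS18A, MRPS18C and MRPS24. The other 72 members had a chronic median of -0.68, with 40 lower by 1.5-fold. MRPS6, which the rule leaves out, had 406, 371, 389, 2073 and 196 counts, and the gene SLC5A3 that overlaps it had 754, 1342, 800, 19550 and 715. Both were highest at 1% O2 day 10, against the direction of the members.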

How the data were processed

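RNA was measured in 5 libraries, 1 per condition. The authors' deposited table holds expected counts per gene symbol, not normalized, and the submitters' processing notes name Bowtie2 2.1.0, RSEM 1.2.15, edgeR and the hg38 build. Neither the strand setting nor the gene annotation of the counting is given in the sources used here. The authors also deposited a scaled signal per gene. Each of its values lay within 0.001 of a whole read once divided by the worth of 1 read, and 99.95% equalled the rounded expected counts, so it served for this check and as an alternative.

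Expected counts were rounded. The 13940 genes that reached 1 CPM in any library were kept, TMM factors were computed on them, and log2 CPM were taken with a prior count of 2. Intervals of differences are exact count-ratio intervals at 95%, and 1 read was worth 0.0816 to 0.126 CPM. They cover counting error only. The oxygen term used edgeR 4.0.16 (glmQLFit, glmQLFTest, R 4.3.3) with the day as a term, on the 13011 genes that reached 1 CPM in 2 or more of its 4 libraries, with Benjamini-Hochberg adjustment at 0.05. DESeq2 1.42.0 and limma 3.58.1 were alternatives. In simulated data of this design (13011 genes, dispersion 0.02), a 2-fold change was recovered for 87 of 100 genes and a 1.5-fold change for 19 of 100, with 5 false calls. The dispersion estimated in the real libraries was 0.0484.

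Members, lists, subunit assignments and tests were chosen with earlier results of these data known. Subunits, sites in the ribosome and bacterial or mitochondrion-specific ancestry were assigned from general knowledge and were not checked against a structure; subunits were also taken by symbol as an alternative. Named members were the 8 lowest and 6 highest in the chronic difference, the 4 lowest and 4 highest in the other differences, the 5 of lowest p in the oxygen term, the stalk proteins, the MRPS18 paralogues, MRPS30 and MRPS36, and the 2 lowest and 2 highest of each related list. Others were named by their role or as examples after their values were seen. Overlaps and neighbours come from GENCODE release 29, promoter sequences from RefSeq on GRCh38.p14. A value of 1 subunit without an MRP symbol is not reported here.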

Additional observations from a re-analysis of the deposited data

Results flagged for a closer look

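In 9 members the acute and the chronic difference had opposite signs, each from 1 library against 1, and the difference between them was not tested. Above 0 in the acute and below 0 in the chronic difference were MRPL49 (0.02 and -0.67, chronic minus acute -0.69), MRPS25 (0.15 and -0.33, -0.48), MRPS21 (0.01 and -0.33, -0.33), MRPL14 (0.04 and -0.29, -0.32), MRPL36 (0.05 and -0.27, -0.32) and MRPL42 (0.03 and -0.06, -0.088). With DESeq2 size factors, the acute difference of MRPS21 moved below 0, and with library totals the chronic difference of MRPL42 moved above 0. Below 0 in the acute and above 0 in the chronic difference were MRPL34 (-0.02 and 0.39, 0.41), MRPS14 (-0.19 and 0.18, 0.36) and MRPL53 (-0.08 and 0.18, 0.26). No acute interval among the first 6 lay above 0, and the acute intervals of MRPL34, MRPS14 and MRPL53 hold 0. The chronic intervals of MRPL36, MRPL42, MRPS14 and MRPL53 hold 0 too. In none of the 9 members did both intervals leave out 0.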

How the results depend on the processing

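No paired analysis was possible because each condition has 1 library. Other scalings, a smaller prior count, the deposited scaled table, other filters and the reference median of higher genes left the direction of each median unchanged, with ranges of -0.24 to -0.22 for the acute, -0.68 to -0.49 for the chronic, -0.17 to -0.15 for the time, 0.37 to 0.51 for the reoxygenated minus chronic and -0.23 to -0.10 for the reoxygenated minus 20% O2 day 10 difference. The chronic gap between subunits was -0.22 by place and -0.20 by symbol, and the acute gap of 0.01 turned to -0.0011 among members with 20 or more CPM in every library. Relative to the median of genes with 20 or more CPM, a setting chosen after seeing the data, 20 and not 33 members were higher by 1.5-fold after reoxygenation. That median is itself above 0 in this pair. Leaving out 1 library and the day term gave 0 to 45 members called for oxygen. The 45 came without 1% O2 day 1, and the cause was not tested. With library totals, the share of higher genes among those past 2-fold in the chronic difference went from 67.2% to 77.7%. Counts per member were 41 or more in each library, and the precision between conditions is limited by their single libraries, which counting intervals do not cover.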
